A study of Homo sapiens with 8 samples.

Results

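The BCL2 family decides whether a cell with damaged or stressed mitochondria lives or dies, and 10 of its genes were followed in neuroblastoma (NB) cells exposed to media conditioned by embryonic ganglia. The genes were taken by symbol from the count table, by a rule that uses no measured value, and all 10 were found among 60676 Ensembl gene identifiers. They comprise 3 anti-apoptotic genes (BCL2, BCL2L1, MCL1), 2 effectors (BAX, BAK1) and 5 BH3-only genes (BBC3, PMAIP1, BCL2L11, BID, BIK). IGR-N91, an established human cell line from a metastatic, MYCN-amplified NB, was grown as aggregates in hanging drops, and bulk RNA-seq was made from 8 libraries, 2 per medium. The control group received control medium. The E8-cSGcm group received medium conditioned by sympathetic ganglia (SG) of chick embryos at embryonic day 8 (E8), the E8-cDRGcm group medium conditioned by dorsal root ganglia (DRG) of chick embryos at the same day, and the E15.5-mSGcm group medium conditioned by SG of mouse embryos at E15.5. All groups shared the cell line, the serum-containing base medium and the hanging-drop culture. Aggregates were harvested after 20 h according to the treatment protocol, whereas the design text of the series has 24 h. One cell line stands for the tumor here, and species, embryonic stage and preparation of the mouse medium cannot be told apart from one another.

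Proteins of this family control the permeability of the outer mitochondrial membrane. BAX and BAK1 form the pores that release cytochrome c, the anti-apoptotic proteins hold them and the BH3-only proteins in check, and the BH3-only proteins carry stress signals to both sides. In cells of the sympathetic lineage and in NB, BCL2 and MCL1 are well-known survival proteins, and the BH3-only genes PMAIP1 (NOXA) and BBC3 (PUMA) are induced by several stress pathways.

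Between 7930765 and 15060744 counts were assigned per library, with the fewest in the 2 E15.5-mSGcm libraries (7930765 and 8937397) and at least 12286211 in each of the others. The 2 libraries of a group correlated at r of 0.989 to 0.993 across genes, which are not independent replicates, and differed by more than counting noise in every group. The study's methods call the libraries duplicates and say in general that distinct samples were measured, without saying whether these came from separate cultures, so p-values measure the spread between these samples, which may be technical. Levels are given as CPM (counts scaled to the library's total, TMM-normalised) within a gene and as TPM (scaled also by gene length) between genes. A gene was called where the edgeR quasi-likelihood test gave a Benjamini-Hochberg adjusted p under 0.05 over 16680 genes and the fold change reached 1.5, the thresholds of the study. Noradrenergic NB markers were present in every library, with a summed level of 5943 to 6031 CPM in control, 4405 to 4678 CPM in E8-cSGcm, 3536 to 3640 CPM in E8-cDRGcm and 3566 to 3734 CPM in E15.5-mSGcm. Most of this sum was MYCN, and the other 7 markers summed to 1333 to 1352, 1097 to 1182, 1082 to 1102 and 994 to 1030 CPM in the same order. In all 8 libraries the 5 Schwann cell and glia markers summed to 0.384 to 1.04 CPM, the 5 immune markers to 0 to 1.15 CPM and 3 endothelial markers to 0 to 1.07 CPM. In bulk samples, fewer cells of a type and less RNA per cell cannot be told apart.

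In RefSeq (GRCh38.p14) PMAIP1 (ENSG00000141682) spans chr18:59899996-59904305, BID (ENSG00000015475) chr22:17734138-17774665, BCL2 (ENSG00000171791) chr18:63123346-63320090, and BBC3 (ENSG00000105327) chr19:47220824-47232860.

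The proximal promoters of PMAIP1, BCL2, BID and BAX are shown first, because the members differ in the short elements that stress and growth regulators are known to bind. These genes were picked by hand, and BAX was not called in any comparison with the main settings. BBC3, the only member called in E15.5-mSGcm against control, has a window that is not printed. Windows of 300 bases, 250 before and 50 from the start site on, were taken from the same annotation for 8 of the 10 genes. MCL1 and BIK had no window. The PMAIP1 window lies at chr18:59899746-59900045 (plus strand), the BCL2 window at chr18:63319720-63320019 (minus strand), the BID window at chr22:17773993-17774292 (minus strand, 1 of 5 starts) and the BAX window at chr19:48954625-48954924 (plus strand). They are written 5′ to 3′ on the gene's strand. The BCL2 and BID windows lie inside the gene spans given above, so their starts are not the outermost annotated ones. The start used for BBC3 also lies inside its span. Of the 5 BID windows, the one with its E-box nearest the start is shown. Capitals mark the CRE half-site TGACG (read on the other strand as CGTCA), to which ATF and CREB factors can bind, in PMAIP1 and BCL2 (not marked in BAX), and the E-box CACGTG, an element of MYC family factors, in BID and BAX.
PMAIP1: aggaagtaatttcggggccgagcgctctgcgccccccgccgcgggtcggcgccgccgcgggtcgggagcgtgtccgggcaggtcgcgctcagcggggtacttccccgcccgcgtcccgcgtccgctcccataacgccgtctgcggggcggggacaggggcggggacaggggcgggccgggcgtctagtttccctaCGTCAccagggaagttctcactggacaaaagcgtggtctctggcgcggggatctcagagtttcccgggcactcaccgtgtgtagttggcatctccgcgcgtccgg
BCL2: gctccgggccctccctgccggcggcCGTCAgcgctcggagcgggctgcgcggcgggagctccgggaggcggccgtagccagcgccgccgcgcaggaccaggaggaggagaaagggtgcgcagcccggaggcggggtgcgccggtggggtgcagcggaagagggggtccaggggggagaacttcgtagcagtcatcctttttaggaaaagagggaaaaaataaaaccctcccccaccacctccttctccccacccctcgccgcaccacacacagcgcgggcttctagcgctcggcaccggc
BID: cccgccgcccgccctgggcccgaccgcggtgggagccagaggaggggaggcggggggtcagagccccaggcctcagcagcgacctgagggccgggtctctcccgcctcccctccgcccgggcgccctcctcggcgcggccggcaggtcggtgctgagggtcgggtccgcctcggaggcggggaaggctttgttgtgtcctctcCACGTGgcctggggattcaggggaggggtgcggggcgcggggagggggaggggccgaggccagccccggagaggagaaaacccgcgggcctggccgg
BAX: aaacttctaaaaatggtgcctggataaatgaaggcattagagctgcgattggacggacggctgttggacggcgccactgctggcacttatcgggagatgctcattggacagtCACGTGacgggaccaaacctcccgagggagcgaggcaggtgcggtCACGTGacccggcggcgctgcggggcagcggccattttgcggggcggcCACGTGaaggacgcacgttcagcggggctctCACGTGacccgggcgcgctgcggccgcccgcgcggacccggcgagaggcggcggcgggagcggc

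Both strands were searched in each window, and a palindrome was counted once. The CRE half-site began 55 bases before the start in PMAIP1 and 225 bases before it in BCL2, and others lay 201 bases before 1 of 2 starts of BCL2L1 and 134 bases before the start of BAX, where it overlaps the first E-box. One is held by 24.6% of 35116 human promoter windows. The BID window held 1 E-box, 47 bases before the start. A second BID start had the same E-box 106 bases before it, and the windows of the other BID starts had none. BBC3 had 1 at 232 bases, and 7.26% of all windows hold one. The BAX window held 4 E-boxes, 138, 93, 45 and 14 bases before the start, a number reached in 5 of the 35116 windows. The FOXO element TGTTTAC was present 223 bases before the start of BCL2L11 and in 3.42% of all windows. The full CRE TGACGTCA (1.85% of all windows), the ATF4 composite TGATGNAA (3.62%) and the NF-kB element (7.73%) matched in no member window. GC boxes (GGGCGG, 45% of all windows) lay in at least 1 window of BCL2L1, BAX, BAK1, PMAIP1, BCL2L11 and BID. The PMAIP1 window held 4, as did BID windows that are not printed. These matches describe letters in the windows and not bound sites.

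Ordered by per-length level, the family in control medium was led by MCL1 with 149 and 148 TPM, followed by PMAIP1 with 129 and 114 TPM, BID with 64.0 and 64.5 TPM, BCL2 with 41.3 and 43.5 TPM and BAX with 32.2 and 32.0 TPM. BCL2L1 had 16.3 and 17.9 TPM, BCL2L11 7.03 and 8.43 TPM, BBC3 6.775 and 5.99 TPM and BAK1 3.22 and 2.81 TPM. The 2 control libraries of each gene did not overlap with those of its neighbour in this order. The order differed between media. In E8-cSGcm and E8-cDRGcm both libraries placed PMAIP1 above MCL1, with 157 and 170 TPM against 130 and 131 TPM in E8-cSGcm, and with 232 and 243 TPM against 151 and 138 TPM in E8-cDRGcm. In E15.5-mSGcm the control order held for the first 6 genes, while BBC3 (9.23 and 11.5 TPM) stood above BCL2L11 (8.47 and 7.93 TPM). BID, BCL2 and BAX overlapped in E8-cDRGcm, where they spanned 29.9 to 38.8 TPM.

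**Figure D1:**
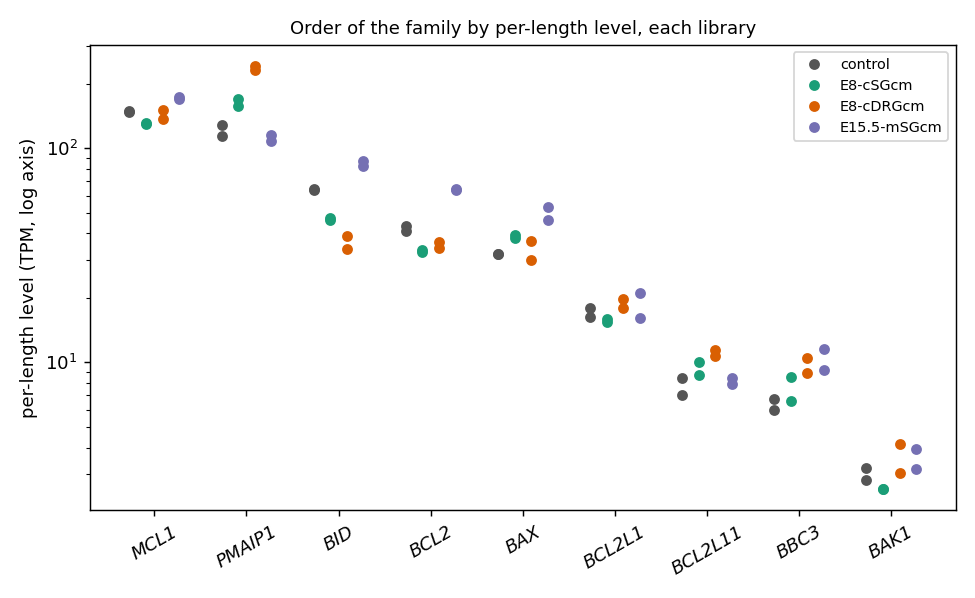
Per-length level (TPM, log axis) of the 9 tested BCL2 family genes, ordered by their mean in control; each point is 1 library and colors mark the 4 media. PMAIP1 lies above MCL1 in the 2 chick media (157 to 243 TPM against 130 to 151 TPM) and below it in control and E15.5-mSGcm.

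BIK, whose product acts at the endoplasmic reticulum, was under a floor of 3 counts (0.197 to 0.384 CPM) in all libraries. A single count was found in 1 control, 1 E8-cDRGcm and 1 E15.5-mSGcm library and none in the others. It was not tested, and no difference could be detected at this depth. The other 9 genes passed the filter on low counts in every comparison.

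The first question was which survival and death genes differed between control medium and medium conditioned by chick SG. None of the 9 tested members was called in E8-cSGcm, against a background of 4.73% of all tested genes called higher and 3.86% called lower. DESeq2 called 0 as well, and 6 of the 9 had an unadjusted p under 0.05. The share of all tested genes at that threshold was not computed, for this count or those below. It cannot be lower than the share passing by adjusted p. With the adjusted p alone 4 members passed, 1 higher and 3 lower, where 31.3% of all genes passed. The largest shifts concerned BID, BCL2 and PMAIP1, and each stayed under the fold threshold.

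In E8-cDRGcm PMAIP1 rose and BID fell, and these 2 were the members called. The background was 9.81% of all genes called higher and 10.9% called lower. With the adjusted p alone 5 of the 9 members passed, 3 higher and 2 lower, near the 49.5% of all genes that did. In E15.5-mSGcm BBC3 rose and was the only member called, where 6.65% of all genes were called higher and 7.27% lower. With the adjusted p alone 5 of the 9 passed there, all of them higher, against 37.8% of all genes. The median log2 fold change over the 9 members was −0.17 in E8-cSGcm, 0.09 in E8-cDRGcm and 0.18 in E15.5-mSGcm, beside 0.01, 0.0055 and −0.015 over all tested genes. The 3 comparisons share the control libraries.

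**Figure D2:**
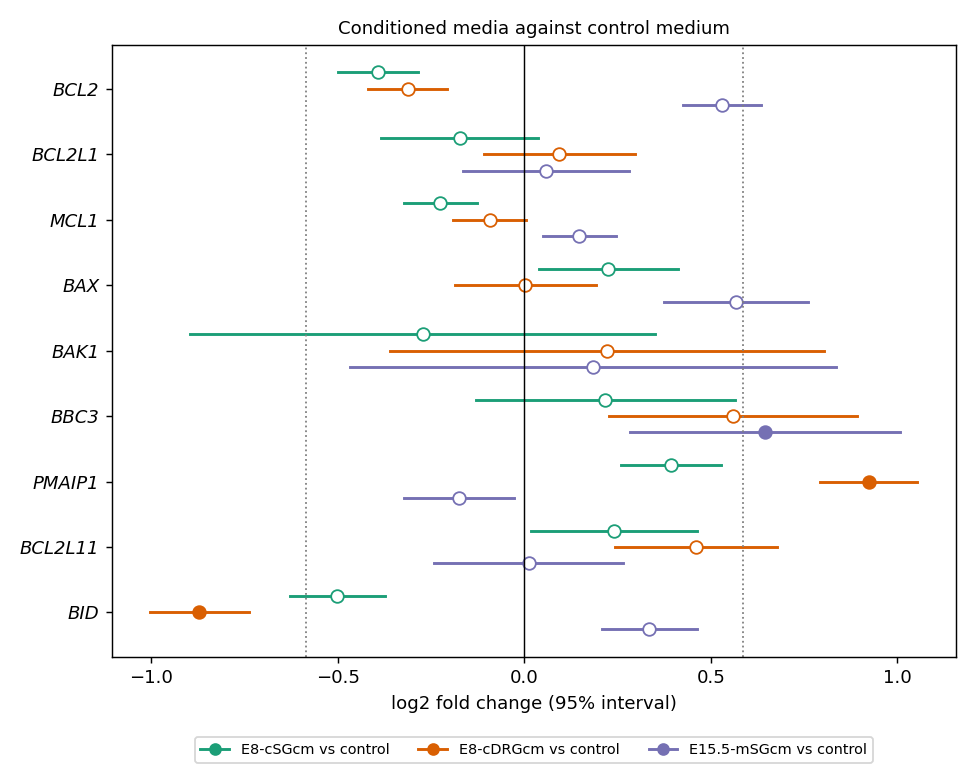
Log2 fold change of the 9 tested members against control (x axis) with 95% intervals, for the 3 conditioned media; filled points are called and dotted lines mark a fold change of 1.5. PMAIP1 at 0.92 and BID at −0.87 in E8-cDRGcm and BBC3 at 0.64 in E15.5-mSGcm are filled.

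Among the anti-apoptotic genes, BCL2, the founding survival gene of the family, showed opposite directions in chick and mouse media. Its level was 168 and 174 CPM in control, 132 and 128 CPM in E8-cSGcm, 138 and 137 CPM in E8-cDRGcm, and 252 and 242 CPM in E15.5-mSGcm. All chick-medium libraries lay below both controls and both mouse-medium libraries above them. Log2 fold changes were −0.39 ± 0.05 (SE) in E8-cSGcm, −0.31 ± 0.05 in E8-cDRGcm and 0.53 ± 0.05 in E15.5-mSGcm. Adjusted p of the edgeR quasi-likelihood test was 2.24e-07, 4.27e-06 and 1.36e-10, and the corresponding folds of 0.762, 0.805 and 1.44 did not reach the threshold.

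The direct comparison of media placed BCL2 past it. Its level was 1.89-fold higher in E15.5-mSGcm than in E8-cSGcm (log2 difference 0.92, 95% interval 0.81 to 1.03, edgeR adjusted p = 4.26e-17). It was 1.79-fold higher in E15.5-mSGcm than in E8-cDRGcm (log2 difference 0.84, 95% interval 0.74 to 0.95, edgeR adjusted p = 2.60e-16). Between the 2 chick media the log2 difference was 0.08, with a 95% interval of −0.03 to 0.19.

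MCL1, a short-lived survival protein that PMAIP1 antagonises, was the member with the highest level in control and varied little. It measured 299 and 291 CPM in control, 253 and 253 CPM in E8-cSGcm, 281 and 273 CPM in E8-cDRGcm, and 328 and 326 CPM in E15.5-mSGcm. No library of a conditioned medium lay within the range of the controls. The log2 fold changes of −0.22 ± 0.05, −0.09 ± 0.05 and 0.15 ± 0.05 (SE) all stayed under the fold threshold, with edgeR adjusted p of 3.52e-04, 0.106 and 0.0153. Exons of MCL1 overlap those of ADAMTSL4 on the other strand and of ADAMTSL4-AS1 on the same strand, with 180 and 119 counts over all 8 libraries beside 2557 to 4426 counts of MCL1 in each.

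BCL2L1, which encodes BCL-XL, showed no called difference. ABALON, an antisense RNA that overlaps its exons, had 43 counts over all libraries. The counts of BCL2L1 were 288 and 363 in control, 260 and 285 in E8-cSGcm, 334 and 329 in E8-cDRGcm, and 164 and 233 in E15.5-mSGcm. On the CPM scale this gave 22.0 and 23.9 in control and 21.0 and 26.6 in E15.5-mSGcm, where the 2 libraries lay on either side of the controls. The log2 fold changes were −0.17 (95% interval −0.38 to 0.04), 0.09 (−0.11 to 0.30) and 0.06 (−0.17 to 0.28) in the order E8-cSGcm, E8-cDRGcm and E15.5-mSGcm. Of the summed per-length level of the 3 survival genes, MCL1 made up 70.6% and 72.2% in the control libraries, 72.4% to 73.1% in the chick media, and 67.3% and 67.8% in E15.5-mSGcm. The share of BCL2 was 20.0% and 20.8% in control, 17.7% to 18.7% in the chick media, and 24.6% and 25.7% in E15.5-mSGcm. BCL2L1 took the remaining 6.45% to 9.59%.

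Of the effectors, BAX, the pore former held in the cytosol of healthy cells, was higher in mouse medium without reaching the fold threshold. It measured 26.8 and 26.2 CPM in control, 30.5 and 31.4 CPM in E8-cSGcm, 28.5 and 24.7 CPM in E8-cDRGcm, and 36.9 and 41.6 CPM in E15.5-mSGcm. Both mouse-medium libraries exceeded all others, and the E8-cDRGcm libraries enclosed the controls. The log2 fold change in E15.5-mSGcm was 0.57 ± 0.10 (SE), or 1.48-fold, with an edgeR adjusted p of 8.51e-06. It lay just below the threshold, and 4 of 13 alternative settings called it, among them the libraries thinned to equal depth (0.61, edgeR adjusted p = 3.99e-06, over all alternatives 2.64e-08 to 0.00359). In E8-cSGcm and E8-cDRGcm the log2 fold changes were 0.23 ± 0.09 and 0.00 ± 0.09, with edgeR adjusted p of 0.0572 and 0.984.

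BAK1, the effector resident in the mitochondrial membrane, was scarce, with 17 to 40 counts per library. The log2 fold changes of −0.27, 0.22 and 0.18 had 95% intervals between −0.90 and 0.83, and no difference was detectable at this depth. A processed copy, BAK1P1, held 101 counts over the 8 libraries and up to 23 in one, so the split of reads between both is uncertain. Per length, BAX exceeded BAK1 in every library, with 29.9 to 53.3 TPM against 2.56 to 4.16 TPM.

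Among the BH3-only genes, PMAIP1, whose product NOXA neutralises MCL1, was called higher in E8-cDRGcm. It measured 90.8 and 79.0 CPM in control, 107 and 115 CPM in E8-cSGcm, 152 and 169 CPM in E8-cDRGcm, and 73.5 and 76.3 CPM in E15.5-mSGcm. The groups did not overlap, and the order was mouse SG, control, chick SG and chick DRG. The level rose 1.896-fold in E8-cDRGcm (log2 0.92 ± 0.06 SE, edgeR adjusted p = 2.59e-14). It was 1.31-fold that of control in E8-cSGcm (log2 0.39 ± 0.07, adjusted p = 1.49e-05) and 0.885-fold in E15.5-mSGcm (log2 −0.18 ± 0.07, adjusted p = 0.0539), neither called. The call in E8-cDRGcm was made in all 13 alternative settings, with log2 fold changes of 0.82 to 1.03.

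The difference between the chick media was 0.53 on the log2 scale (95% interval 0.40 to 0.66, edgeR adjusted p = 4.02e-08), under the fold threshold. The level of PMAIP1 was lower in E15.5-mSGcm than in E8-cDRGcm by 1.10 on the log2 scale, at 0.467-fold (95% interval of the log2 difference −1.24 to −0.96, edgeR adjusted p = 1.33e-15). Against E8-cSGcm it was 0.674-fold (adjusted p = 3.10e-08), not called. The ratio of PMAIP1 to MCL1 per length, chosen after the values were seen, was 0.863 and 0.772 in control, 1.21 and 1.30 in E8-cSGcm, 1.54 and 1.77 in E8-cDRGcm, and 0.639 and 0.666 in E15.5-mSGcm. The 4 groups kept the same order as for PMAIP1 itself.

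BID, which links death receptors to mitochondria once caspase-8 cleaves its product, showed the reverse order. It measured 91.1 and 90.4 CPM in control, 63.4 and 64.8 CPM in E8-cSGcm, 51.4 and 47.9 CPM in E8-cDRGcm, and 119 and 110 CPM in E15.5-mSGcm. No 2 groups overlapped, with chick DRG lowest and mouse SG highest. The level fell to 0.547-fold in E8-cDRGcm (log2 −0.87 ± 0.06 SE, edgeR adjusted p = 5.31e-14), a call made in all 13 alternative settings. In E8-cSGcm the fold was 0.706 (log2 −0.50 ± 0.06, adjusted p = 6.48e-08) and in E15.5-mSGcm 1.26 (log2 0.34 ± 0.06, adjusted p = 4.36e-05), neither called. Between media BID was 1.79-fold higher in E15.5-mSGcm than in E8-cSGcm (log2 difference 0.84 ± 0.06, edgeR adjusted p = 1.91e-13). It was 2.31-fold higher in E15.5-mSGcm than in E8-cDRGcm (log2 difference 1.21 ± 0.07, adjusted p = 7.50e-18), the largest difference among the members in any of the 6 comparisons. Between the chick media it was 0.774-fold in E8-cDRGcm relative to E8-cSGcm (adjusted p = 5.04e-05), under the fold threshold.

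**Figure D3:**
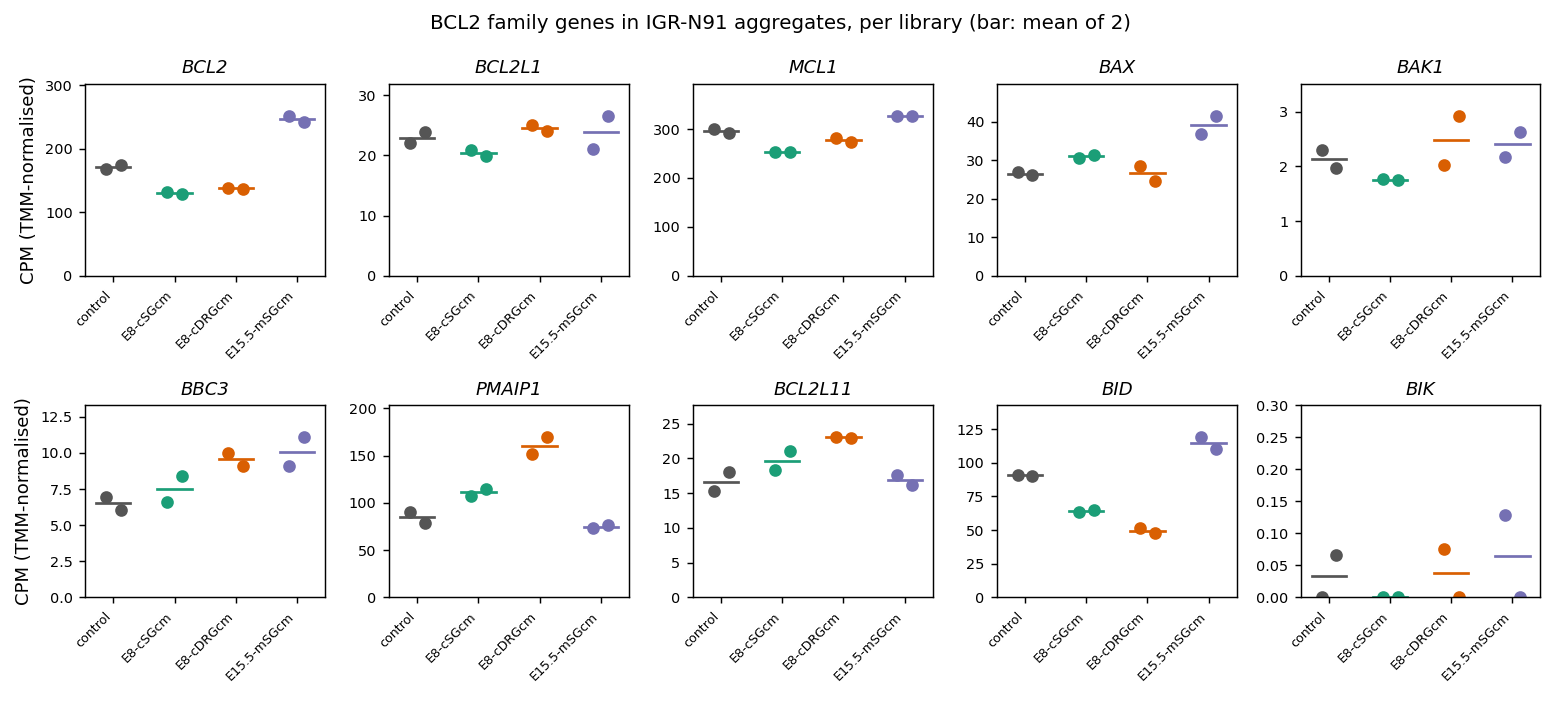
CPM (TMM-normalised, y axes from 0) of the 10 members in each library, by medium; horizontal bars are means of the 2 libraries. BCL2 and BID are highest in E15.5-mSGcm (242 to 252 and 110 to 119 CPM), PMAIP1 in E8-cDRGcm (152 and 169 CPM), and BIK stays at 0 or 1 count.

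BBC3, whose product PUMA binds every anti-apoptotic member, was a low-level gene with 71 to 134 counts per library. It measured 6.96 and 6.05 CPM in control, 6.57 and 8.40 CPM in E8-cSGcm, 10.02 and 9.08 CPM in E8-cDRGcm, and 9.10 and 11.1 CPM in E15.5-mSGcm. The E8-cDRGcm and E15.5-mSGcm libraries lay above both controls and overlapped with one another, while E8-cSGcm overlapped with control. The level rose 1.56-fold in E15.5-mSGcm (log2 0.64 ± 0.18 SE, edgeR adjusted p = 0.00402). This call was lost without control library 2 (log2 0.53, adjusted p = 0.0555) and without E15.5-mSGcm library 2 (log2 0.48, adjusted p = 0.129), within a range of 1.23e-05 to 0.129 over the 13 alternatives of the edgeR test and DESeq2. In E8-cDRGcm the fold was 1.47 (log2 0.56 ± 0.16, adjusted p = 0.00463), just under the threshold. The difference between these 2 media was 0.09 on the log2 scale, with a 95% interval of −0.26 to 0.43, so a difference between them was not detectable.

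BCL2L11, which encodes BIM, the BH3-only protein of neurons deprived of growth factor, measured 15.3 and 18.02 CPM in control, 18.4 and 21.0 CPM in E8-cSGcm, 23 and 23 CPM in E8-cDRGcm, and 17.7 and 16.1 CPM in E15.5-mSGcm. Both chick media lay above the controls, and the mouse medium within their range. In E8-cDRGcm the log2 fold change of 0.46 ± 0.11 (SE; 1.38-fold, edgeR adjusted p = 4.54e-04) remained under the fold threshold. Without control library 2 it reached the threshold (0.59, adjusted p = 5.72e-04, range over 13 alternatives 1.28e-04 to 0.0249). Log2 fold changes in E8-cSGcm and E15.5-mSGcm were 0.24 ± 0.11 and 0.01 ± 0.12, with edgeR adjusted p of 0.0959 and 0.956. An antisense long RNA, MIR4435-2HG, shares exonic sequence with it and had 849 counts over all libraries, against 138 to 314 counts of BCL2L11 in each, so part of the BCL2L11 count could belong to its neighbour. The ratio of BCL2L11 to BCL2 per length, also chosen after the values were seen, was 0.170 and 0.194 in control, 0.260 and 0.306 in E8-cSGcm, 0.312 and 0.314 in E8-cDRGcm, and 0.131 and 0.124 in E15.5-mSGcm. BID to BCL2, computed in the same way, was 1.55 and 1.48 in control and 1.37 and 1.44 in E8-cSGcm. It was 1.06 and 0.997 in E8-cDRGcm, and 1.35 and 1.30 in E15.5-mSGcm. BAX to BCL2 was 0.780 and 0.735 in control and 1.13 and 1.19 in E8-cSGcm. This ratio was 1.00 and 0.878 in E8-cDRGcm, and 0.714 and 0.837 in E15.5-mSGcm.

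The next question was how the conditioned media differed from each other. Between the chick media 0 of 9 members were called, where 7.49% of all genes were called in either direction. DESeq2 also called 0, and 7 members had an unadjusted p under 0.05 in edgeR. E15.5-mSGcm against E8-cSGcm gave 2 calls, BCL2 and BID, both higher, beside 22.3% of all genes. E15.5-mSGcm against E8-cDRGcm gave 3, with BCL2 and BID higher and PMAIP1 lower, beside 26.2% of all genes. The comparisons share libraries and are not independent of each other. With adjusted p alone, MCL1 and BAX passed in both comparisons of the mouse medium, at 0.37 and 0.34 on the log2 scale against E8-cSGcm and at 0.24 and 0.57 against E8-cDRGcm. In all, 4 of 9 members passed that way between the chick media (30.2% of all genes), 6 between E15.5-mSGcm and E8-cSGcm (49.8%) and 6 between E15.5-mSGcm and E8-cDRGcm (52.6%).

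**Figure D4:**
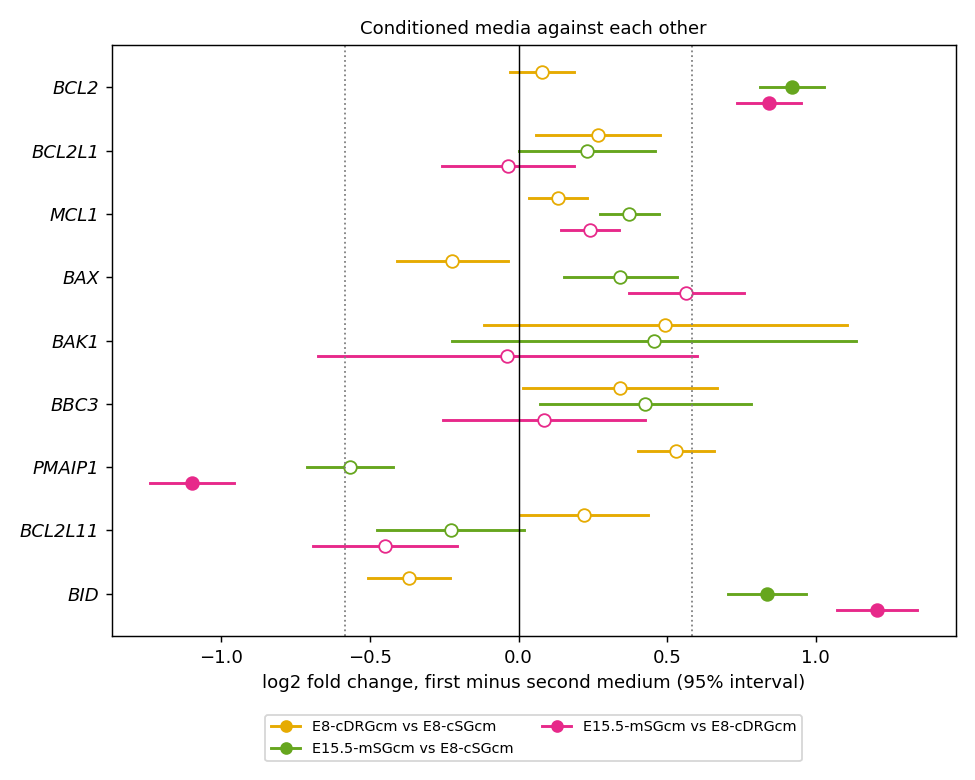
Log2 fold change of the 9 tested members between conditioned media (x axis, first minus second medium) with 95% intervals; filled points are called and dotted lines mark a fold change of 1.5. BCL2 (0.92 and 0.84) and BID (0.84 and 1.21) are filled in both comparisons of E15.5-mSGcm and PMAIP1 (−1.10) in the comparison with E8-cDRGcm.

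Library depth and marker genes of other cell types differed between the media and are given beside the results. With every library thinned to 7930765 counts, the smallest total, E15.5-mSGcm against control gave 2 called members, BBC3 and BAX. Among all genes 989 were called higher and 1100 lower in that setting. Of the 5 fibroblast markers, 4 were higher in E15.5-mSGcm, led by PDGFRA (1.07 and 0.526 CPM in control, 8.58 and 11.1 CPM in E15.5-mSGcm) and DCN (2.75 and 2.76 against 13.7 and 13.5 CPM), and COL1A1 was lower. None of these markers was called in E8-cSGcm by edgeR or DESeq2 (3 with an unadjusted p under 0.05, 2 passing by adjusted p alone). In E8-cDRGcm 1 of these markers, DCN, was called lower by edgeR and not by DESeq2 (adjusted p = 0.113). Their summed level was 156 to 174 CPM in control, 159 to 172 CPM in E15.5-mSGcm, 211 to 222 CPM in E8-cSGcm and 194 to 199 CPM in E8-cDRGcm. In the chick media both libraries lay above control, with COL1A1 at log2 fold changes of 0.46 in E8-cSGcm and 0.46 in E8-cDRGcm, not called. Of the 8 noradrenergic markers, 2 were called lower in E8-cSGcm, 5 in E8-cDRGcm and 3 in E15.5-mSGcm. Beside both marker lists, 3.86%, 10.9% and 7.27% of all tested genes were called lower in the same order. The shares called higher were 4.73%, 9.81% and 6.65%. Among the noradrenergic markers DBH, the enzyme that makes noradrenaline, fell by 1.96 on the log2 scale in E8-cDRGcm and by 1.11 in E8-cSGcm. TH, the first enzyme of catecholamine synthesis, fell by 3.03 in E15.5-mSGcm. The markers did not move alike. DBH was higher in E15.5-mSGcm (log2 0.47, not called). TH was at −0.11 in E8-cSGcm and −0.52 in E8-cDRGcm, and HAND2 at −0.04 and 0.01, none of them called. The part of these shifts in the results for the BCL2 family was not tested.

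The remaining family members and the pathways around them were described from lists written with earlier results of these data known. Of 13 other BCL2 family genes, 8 were tested. BMF, a BH3-only gene tied to the cytoskeleton, rose in E8-cSGcm (12.5 and 11.9 CPM in control, 20.2 and 20.2 CPM in E8-cSGcm, log2 0.73 ± 0.11 SE). BOK, an effector-like member, fell in E8-cDRGcm (59.0 and 60.4 CPM in control, 27.4 and 30.5 CPM in E8-cDRGcm, log2 −1.05 ± 0.08). In E8-cSGcm BOK measured 40.7 and 40.0 CPM (log2 −0.57 ± 0.07), just under the fold threshold. Its log2 fold change in E15.5-mSGcm was −0.20, also not called. BCL2L12, an atypical member, rose by 0.71 on the log2 scale in E8-cDRGcm and fell by 0.67 in E15.5-mSGcm. It measured 5.28 and 5.66 CPM in control and 3.84 and 3.08 CPM in E15.5-mSGcm. The counts were 69 and 86 against 30 and 27, the latter in smaller libraries. The rise of BMF, the fall of BOK in E8-cDRGcm and both changes of BCL2L12 were the only edgeR calls in that list. DESeq2 did not call BCL2L12 in E15.5-mSGcm (adjusted p = 0.0930). For all tested genes the shares called higher were 4.73%, 9.81% and 6.65% in E8-cSGcm, E8-cDRGcm and E15.5-mSGcm. Those called lower were 3.86%, 10.9% and 7.27%.

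The next list held apoptosome and caspase genes, with genes of death receptor signalling such as CASP8, CASP10 and FADD among them. Of 18 apoptosome and caspase genes none was called in E8-cSGcm by edgeR or DESeq2, although 10 had an unadjusted p under 0.05. With the adjusted p alone 10 passed there, beside 31.3% of all tested genes. In E8-cDRGcm 1 was called higher and 1 lower, and in E15.5-mSGcm 0 higher and 1 lower. Of all tested genes, 4.73% were called higher and 3.86% lower in E8-cSGcm. These shares were 9.81% and 10.9% in E8-cDRGcm, and 6.65% and 7.27% in E15.5-mSGcm. In E8-cDRGcm CASP10, an initiator caspase, rose by 0.95 ± 0.31 (SE) on the log2 scale from 19 and 21 counts to 40 and 34. ENDOG, a mitochondrial nuclease, fell by 0.88 in the same medium and by 0.59 in E15.5-mSGcm. DESeq2 called neither CASP10 in E8-cDRGcm (adjusted p = 0.0935) nor ENDOG in E15.5-mSGcm (log2 −0.58, under the fold threshold). The list's median log2 fold changes were −0.07, −0.12 and 0.10 in the order E8-cSGcm, E8-cDRGcm and E15.5-mSGcm. Over all tested genes they were 0.01, 0.0055 and −0.015.

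Of 12 CHOP and integrated stress response genes, 4 were called higher and 2 lower in E8-cSGcm, 5 higher and 1 lower in E8-cDRGcm, and 2 higher and 2 lower in E15.5-mSGcm. Shares over all tested genes, in the same order, were 4.73%, 9.81% and 6.65% higher and 3.86%, 10.9% and 7.27% lower. DDIT3, which encodes CHOP, measured 10.8 and 9.60 CPM in control, 18.4 and 22.4 CPM in E8-cSGcm, 35.4 and 32.4 CPM in E8-cDRGcm, and 7.94 and 10.1 CPM in E15.5-mSGcm. It rose by 1.01 ± 0.12 (SE) and 1.74 ± 0.11 on the log2 scale in the chick media, and its value in the mouse medium was −0.17 ± 0.16 (edgeR adjusted p = 0.454). TRIB3, a pseudokinase induced by CHOP, rose by 1.11 and 2.49 in E8-cSGcm and E8-cDRGcm. ERN1, the endoplasmic reticulum stress sensor IRE1, rose by 0.90 in E8-cSGcm and by 1.93 in E8-cDRGcm, both called. In E15.5-mSGcm CHAC1, a glutathione-degrading enzyme of the same response, fell by 2.098 and EIF2AK3, the sensor PERK, rose by 1.01. Called lower in the chick media were ATF3 (log2 −0.83) and CHAC1 (−0.64) in E8-cSGcm and HSPA5 (−0.82) in E8-cDRGcm. The list's median was 0.15 in E8-cSGcm, 0.38 in E8-cDRGcm and −0.20 in E15.5-mSGcm, beside 0.01, 0.0055 and −0.015 over all tested genes.

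Of 10 tested NF-kB survival genes, 6 were called higher in E15.5-mSGcm and 0 lower, in edgeR and in DESeq2. There 7 had an unadjusted p under 0.05 and 7 passed by adjusted p alone, beside 37.8% of all tested genes. BIRC3, an inhibitor of apoptosis protein, measured 3.90 and 3.68 CPM in control, 2.33 and 1.96 CPM in E8-cSGcm, 1.72 and 1.25 CPM in E8-cDRGcm, and 30.5 and 27.99 CPM in E15.5-mSGcm. It rose by 2.94 ± 0.16 (SE) on the log2 scale in the mouse medium and fell by 0.82 and 1.35 in the chick media. NFKB2, a subunit of the noncanonical pathway, rose in all 3 media, by 0.91, 1.69 and 2.08 in the order E8-cSGcm, E8-cDRGcm and E15.5-mSGcm. TNFAIP3, a feedback inhibitor of the pathway, had 1 and 0 counts in control and 11 and 29 in E15.5-mSGcm. In all, 1 gene was called higher and 2 lower in E8-cSGcm and 2 higher and 1 lower in E8-cDRGcm. Among all tested genes 4.73%, 9.81% and 6.65% were called higher and 3.86%, 10.9% and 7.27% lower in E8-cSGcm, E8-cDRGcm and E15.5-mSGcm. The median of the list was 0.02, 0.14 and 1.51 in E8-cSGcm, E8-cDRGcm and E15.5-mSGcm, beside 0.01, 0.0055 and −0.015 over all tested genes.

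Of 9 FOXO, E2F and other transcription factors that regulate BH3-only genes, 2 were called higher and 0 lower in E8-cSGcm. There 6 had an unadjusted p under 0.05 and 6 passed by adjusted p alone, beside 31.3% of all tested genes. In each of the other media 3 were called higher and 1 lower. BCL6, a repressor, rose in all of them, by 0.79, 1.47 and 2.38 on the log2 scale in the order E8-cSGcm, E8-cDRGcm and E15.5-mSGcm. FOXO1 rose by 1.02 in E8-cSGcm from 13 and 15 counts to 28 and 26, a call that DESeq2 did not make (adjusted p = 0.144). In E8-cDRGcm FOXO1 rose by 1.42, to 32 and 40 counts, and was called. MYC rose by 1.47 in E8-cDRGcm, from 10 and 9 counts to 25 and 26. MYCN, the amplified oncogene of the line, measured 4679 and 4610 CPM in control, 3308 and 3496 CPM in E8-cSGcm, 2433 and 2558 CPM in E8-cDRGcm, and 2704 and 2573 CPM in E15.5-mSGcm. It fell by 0.90 in E8-cDRGcm and by 0.82 in E15.5-mSGcm, and its log2 fold change of −0.45 in E8-cSGcm was not called. None of the 7 MCL1 turnover genes, ubiquitin ligases, deubiquitinases and kinases that set the lifetime of the protein, was called in any medium by edgeR or DESeq2. In the order E8-cSGcm, E8-cDRGcm and E15.5-mSGcm, 5, 4 and 4 of them had an unadjusted p under 0.05. With the adjusted p alone 3, 4 and 4 passed, beside 31.3%, 49.5% and 37.8% of all tested genes. Beside this list and the transcription factors, 4.73%, 9.81% and 6.65% of all tested genes were called higher in E8-cSGcm, E8-cDRGcm and E15.5-mSGcm. The shares called lower were 3.86%, 10.9% and 7.27%.

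**Figure D5:**
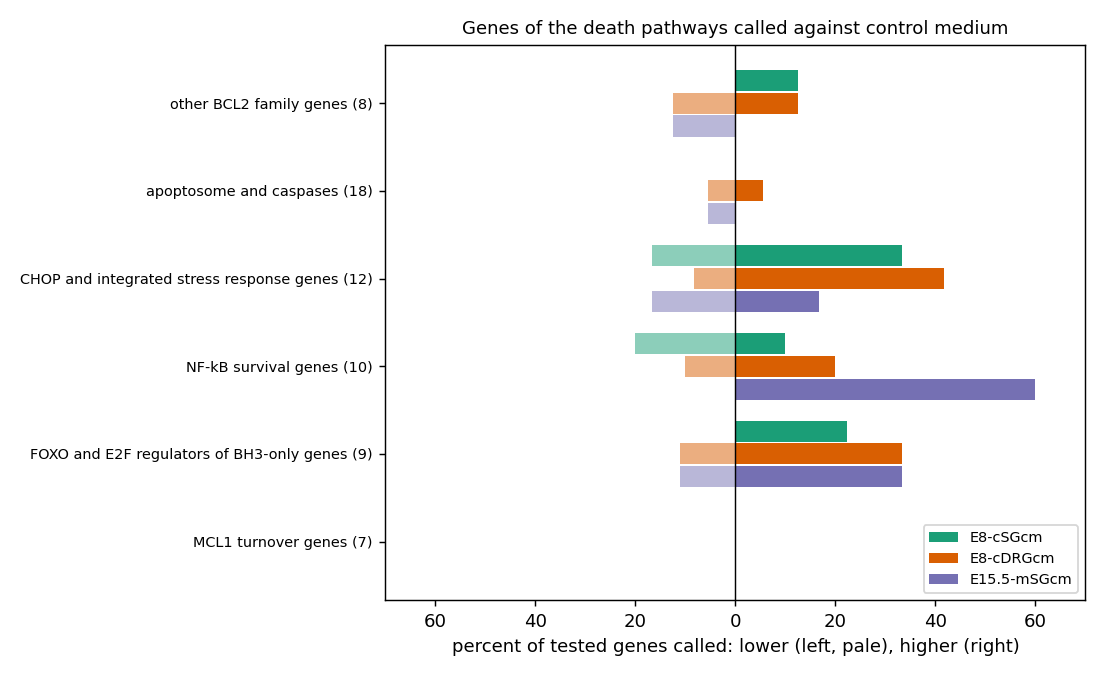
Percent of the tested genes of each pathway list shown (number tested in brackets; cell type marker lists are not plotted) called higher (right) or lower (left, pale) than control in each conditioned medium, by the same rule as for the members. NF-kB survival genes in E15.5-mSGcm (6 of 10 higher) and stress response genes in E8-cDRGcm (5 of 12 higher) have the longest bars of those plotted, and MCL1 turnover genes have none.

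The genes whose pattern over the 8 libraries was most like that of a called member were found by Pearson correlation of log2 CPM, given as a description since all share the same libraries and group differences. For PMAIP1 these were PFDN2 (r = 0.995) and PLIN3 (r = 0.995), for BID KCNJ6 (r = 0.996) and AMPD3 (r = 0.996), and for BBC3 DMTF1 (r = 0.992) and APLF (r = 0.974).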

How the data were processed

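Libraries of total RNA from IGR-N91 aggregates (2 per medium, 8 in all) were prepared from 50 ng input with strand-marking chemistry and read once over 75 bp. The authors deposited raw counts per Ensembl gene, and the submitters' processing notes list cutadapt 1.9.1, TopHat2 2.1.0 and HTSeq 0.11.3. Those notes name hg38 as the build and the study's methods another, and the table has no coordinates, so positions given here are RefSeq's (GRCh38.p14). The strand option of the counting is not given in the sources used here. Of 60676 identifiers 58611 matched a symbol.

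Counts were fitted with edgeR 4.0.16 (TMM, filterByExpr, robust quasi-likelihood) in 1 model of the 4 groups, tested on simulated data, with Benjamini-Hochberg adjustment over 16680 genes. DESeq2 1.42.0 (run in R 4.3.3) was an alternative, besides RLE scaling, other filters, GC and length correction, thinning, fits of the compared libraries only and leaving out each library. SE is the log2 fold change over the root of the F value. TPM was computed from exonic length. Library totals were 7930765 to 15060744, and intervals cover the spread between these libraries only. The rule for the members uses no measured value, but members and lists were chosen with earlier results of these data known. Genes named from a list were the 2 of largest change among those called in each medium, plus DDIT3 and MYCN, and some genes and 1 list that this rule covers are not reported here.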

Additional observations from a re-analysis of the deposited data

How the results depend on the processing

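Over the member values in the 3 comparisons with control, 328 recomputed values kept direction and side of the threshold, 13 reversed, 8 gained and 2 lost the call. With adjusted p alone the number of members passing was 4 in E8-cSGcm, 5 in E8-cDRGcm and 5 in E15.5-mSGcm against control, and 4, 6 and 6 between media (E8-cDRGcm against E8-cSGcm, E15.5-mSGcm against E8-cSGcm, E15.5-mSGcm against E8-cDRGcm). E15.5-mSGcm against control gave 2 called members under GC and length correction, also with the replicate block, and 2 after thinning, with BAX as the added gene at 0.73, 0.73 and 0.61. Leaving out 1 library gave 0 to 2 there: 0 without control library 2 or E15.5-mSGcm library 2, where BBC3 was lost, and 2 without E15.5-mSGcm library 1. BBC3 reached 1.00 on the log2 scale under GC and length correction. E15.5-mSGcm against E8-cSGcm gave 4 under that correction with or without the block, with BBC3 and PMAIP1 added. In that comparison PMAIP1 was called in 5 of 13 alternatives, also with every gene of at least 1 count and without E8-cSGcm library 1 or E15.5-mSGcm library 2, and BBC3 also without E8-cSGcm library 2. Against E8-cDRGcm, BAX was called in E15.5-mSGcm in 5 of 13, under that correction with or without the block, after thinning, and without E8-cDRGcm library 1 or E15.5-mSGcm library 1. E8-cDRGcm against E8-cSGcm gave 0 to 1 with 1 library left out, PMAIP1 being called without E8-cDRGcm library 1. In E8-cDRGcm BBC3 was called after thinning (0.69), without control library 1 (0.66) and without E8-cDRGcm library 2 (0.63). The cause of these changes was not tested, apart from the libraries left out.

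Reversed values were all of members not called. In E8-cDRGcm BAX was −0.0415 after thinning and −0.107 to 0.106 with 1 library left out, and BAK1 −0.00799 after thinning and −0.0698 to 0.459 with 1 library left out. In E15.5-mSGcm BCL2L1 was −0.137 to 0.205 with 1 library left out. BCL2L11 there was −0.0437 with every gene of at least 1 count, −0.0466 under GC and length correction, −0.0447 with the block added, −0.0533 after thinning, and −0.105 to 0.132 with 1 library left out.

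Libraries with the same replicate number did not deviate together (correlations −0.04 to 0.04), and the replicate block changed 0 of 27 member calls against control. Depth limits BAK1, BBC3 and BIK most.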
